A study of Mus musculus with 24 samples.

Results

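Cells carrying the tetra form of the glucocorticoid receptor were compared with cells carrying the wild-type receptor, both given vehicle alone, in 6 of the 24 libraries of the series. All libraries come from C127 (C127l in the labels), a mouse mammary tumour line in which, per the genotype GRKO, the resident receptor was knocked out and a GFP-tagged mouse receptor was put back. Tetra vehicle is 3 libraries of GRKO cells with GFP-mGRtetra. Wt vehicle is 3 libraries of GRKO cells with GFP-mGRwt. Both were kept for 24 h in medium with charcoal-stripped serum, which is poor in steroids, and neither received corticosterone (Cort) or TCA, a name the labels do not spell out. The remaining 18 libraries are of the same lines with 100 nM Cort, 100 µM TCA or both for 2 h, and 3 more pairs of tetra against wt that share no library with the vehicle pair were made from them. Each receptor form comes in a single line, no group lacks a receptor form, and the library names run in a separate block for each line, so receptor form, line and library set cannot be told apart. The labels do not say whether the 3 libraries of a group are separate cultures, so p-values measure the spread between these libraries, which may be technical.

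The glucocorticoid receptor, encoded by Nr3c1, is a steroid-activated transcription factor that waits in the cytoplasm in a complex with heat shock protein 90 and its co-chaperones. Once bound by hormone it enters the nucleus, binds DNA and raises genes such as Per1, Tsc22d3, Fkbp5 and Sgk1. The tetra receptor carries a substitution in the DNA-binding domain that favours assemblies larger than a dimer; this is background, and the labels give the name alone. With stripped serum and vehicle the receptor has little ligand, so the comparison describes how the lines differ before hormone is added.

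The tetra vehicle libraries held 23729612, 26683086 and 28346771 recovered exon reads, and the wt vehicle libraries held 22453770, 22822079 and 23865089. Rn45s, the precursor of ribosomal RNA, made up 21.3 to 23.7% of the reads in tetra and 20.8 to 22.8% in wt. Between 15794 and 16467 genes were detected per library. All values below are normalised read counts, in which the libraries of a comparison share 1 scale, and log2 differences are tetra minus wt on the log2 of the count plus 1, a scale that understates the difference of low genes. Of 30 epithelial and keratin genes 25 had reads and 13 were tested, with Krt14 and Jup well expressed. Among the defining markers, however, Epcam and Krt5 had no read, and Cdh1 had at most 1.09. Vim, the intermediate filament of mesenchymal cells, was among the most abundant transcripts, with 88838 ± 1674 in tetra and 112579.5 ± 1273 in wt (SD, n = 3 each). Of 9 endothelial markers 7 had reads, with sums of 429.8 to 462 in tetra and 464 to 479 in wt, and Kdr and Tie1 had none. Of 13 immune cell markers 9 had reads, with sums of 227 to 270.5 in tetra and 374 to 428 in wt. Cd3e, Adgre1 and the mast cell markers Fcer1a and Ms4a2 had none, nor had Kit of the mammary list.

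The wt libraries of the series fell into separate sets. On the first principal component of all 24 libraries, with 39.9% of the variance, the tetra libraries lay between -5.2 and 1.4 whatever their treatment. The wt vehicle and wt Cort libraries lay between 29.9 and 34.5, and the wt libraries with TCA, alone or with Cort, between -28.8 and -26.5. The root mean square log2 difference between group means was 0.40 for tetra vehicle and wt vehicle, 0.55 for wt TCA and wt vehicle, and 0.16 for tetra TCA and tetra vehicle. The wt vehicle libraries were thus farther from the wt TCA libraries than from the tetra vehicle libraries. No label names a batch, and the part of one was not tested. Median log2 differences of the main gene lists below are therefore given in the other pairs too.

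**Figure D1:**
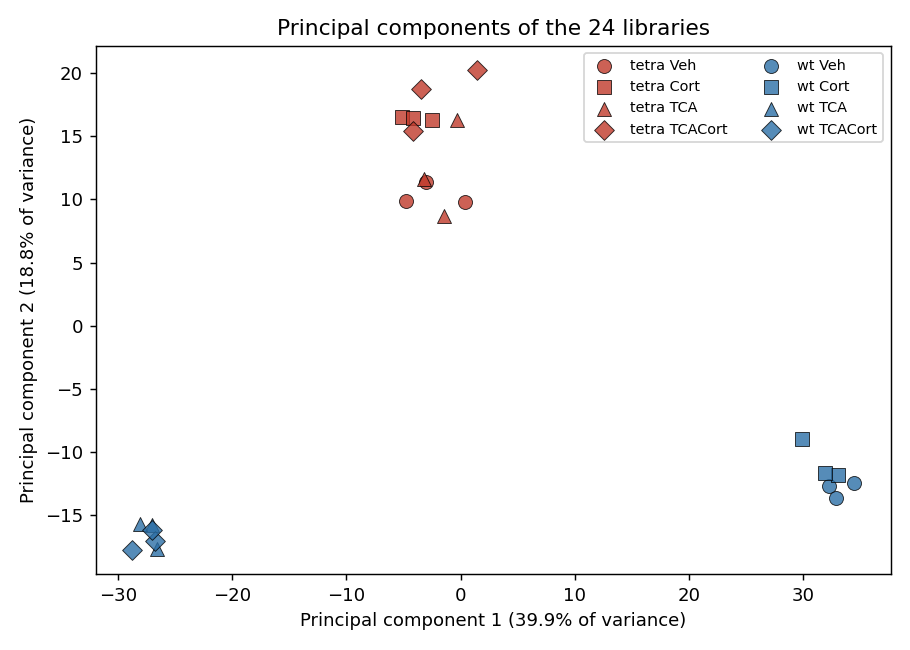
Each point is 1 of the 24 libraries on the first and second principal components of log2 normalised counts, in red for tetra and blue for wt, with a shape for each treatment. The tetra libraries sit between -5.2 and 1.4 on the first component, between the wt libraries with TCA at -28.8 to -26.5 and the other wt libraries at 29.9 to 34.5.

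Of 12803 genes tested, 5663 (44.2%) differed between tetra vehicle and wt vehicle at an adjusted p below 0.05 (limma, Benjamini-Hochberg over all genes tested). In tetra 2740 were higher (21.4%) and 2923 lower (22.8%). Most differences were small, with a median absolute log2 difference of 0.31 among called genes, or 1.24-fold. At least 2-fold differences were called for 366 genes (2.86%), of which 262 were lower in tetra (2.05%) and 104 higher (0.812%). That count was 201 with a minimum mean of 50 and 681 with no filter on low counts. The groups did not overlap for 5337 of the 5663. With 3 libraries per group this largely follows from the call and is no further support for it. No gene with a mean of at least 50 in one line had 3 reads or fewer in every library of the other. The split depends on the scaling: of called genes 48.4% were higher in tetra as scaled here, but 66.1% when libraries were scaled to total exon reads and 69.6% when scaled to exon reads without Rn45s, under which the median of all genes was 0.11 instead of 0.01. Fewer cells of a kind and less RNA per cell cannot be told apart in such bulk libraries.

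Nr3c1 (chromosome 18, 39410545 to 39489776 in mm10), the gene that was knocked out and put back, had 5238, 5095 and 5445 in tetra, against 5442, 5482 and 5079.7 in wt. The groups overlapped and no difference was called (log2 difference -0.02 ± 0.04 SE, adjusted p = 0.742), and its sign turned with the scaling. These counts do not separate reads of the added receptor from those of the disrupted gene. They test neither the deletion nor which form is present. Of 25 tested genes of the receptor's machinery, 10 were higher and 6 lower in tetra (median 0.08; the median of all genes tested was 0.01). Chaperones and co-chaperones went both ways. Fkbp4, Fkbp5, Hsp90aa1, Hspa8, Dnajb1, Stip1, Ptges3, Ppid and Ppp5c were higher, Cdc37 (-0.13) and St13 (-0.26) were lower, and Hsp90ab1, Hspa4, Dnaja1, Bag1 and Stub1 were not called. Fkbp4, an immunophilin that helps the receptor to the nucleus, had 4566, 4977 and 4483 in tetra, against 3465, 3381 and 3419.8 in wt. All tetra libraries were above all wt libraries (log2 difference 0.45 ± 0.04 SE, adjusted p = 2.3e-09). The heat shock protein 90 gene Hsp90aa1 had 12831 ± 1003 in tetra and 9674 ± 405 in wt (log2 difference 0.41 ± 0.05 SE, adjusted p = 1.04e-07). The cyclophilin gene Ppid had 1654 ± 59.04 in tetra and 1211 ± 27.2 in wt (log2 difference 0.45 ± 0.05 SE, adjusted p = 2.48e-08) and Dnajb1, a co-chaperone, had 1227 ± 25.8 in tetra and 915 ± 33.9 in wt (log2 difference 0.42 ± 0.05 SE, adjusted p = 2.95e-07; SD, n = 3 each). Fkbp5, which restrains the receptor and is itself one of its targets, had 1552, 1625 and 1646 in tetra, against 1326, 1309 and 1335 in wt, again without overlap (log2 difference 0.28 ± 0.05 SE, adjusted p = 3.45e-05). The mineralocorticoid receptor gene Nr3c2, which binds the same hormone, was lower, at 6.26 ± 4.09 in tetra and 15.7 ± 2.81 in wt (log2 difference -1.40), as was Hsd11b2, whose enzyme inactivates that hormone, at 10.7 ± 2.19 in tetra and 25.98 ± 8.37 in wt (log2 difference -1.17; both were named after their values were seen). The machinery list had medians of 0.16 with Cort, -0.09 with TCA and 0.05 with TCA plus Cort.

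Among 33 tested genes known to rise with glucocorticoids, 6 were higher and 20 lower in tetra with vehicle (median -0.33), where 21.4% of all genes tested were higher and 22.8% lower. Sgk1, a kinase of ion transport, had 2767, 2755 and 2769 in tetra, against 3839, 3481 and 3621 in wt (log2 difference -0.40 ± 0.04 SE, adjusted p = 2.14e-08). Klf9, a transcription factor, had 464 ± 23.6 in tetra and 586 ± 9.40 in wt (log2 difference -0.34 ± 0.07 SE, adjusted p = 0.000261). Orm3, an acute-phase gene with close paralogs, had 83.5 ± 4.04 in tetra and 126 ± 17.8 in wt (log2 difference -0.58 ± 0.15 SE, adjusted p = 0.00196). Mknk2, a kinase of translation, Mt1, a metallothionein, and Bcl2l1, which protects against cell death, were lower, with log2 differences of -0.69, -0.82 and -0.62. Ddit4, an inhibitor of mTOR, was higher, with 7959, 6776 and 6530.3 in tetra, against 3095, 3113 and 2923 in wt (log2 difference 1.21 ± 0.05 SE, adjusted p = 7.36e-17). Per1, a clock gene, was called higher at 484 ± 13.9 in tetra and 416 ± 31.98 in wt (adjusted p = 0.023), a call that was lost without tetra library 2 (adjusted p = 0.0917) or wt library 1 (adjusted p = 0.137). Tsc22d3, which encodes GILZ, had 512 ± 45.6 in tetra and 524 ± 32.3 in wt and Dusp1, a phosphatase of MAP kinases, had 197 ± 8.20 in tetra and 232 ± 21.8 in wt, and neither was called (adjusted p = 0.732 and 0.0759). The list's median was 0.20 with Cort, -0.02 with TCA and 0.82 with TCA plus Cort. The tested difference between the vehicle pair and the Cort pair was called for 150 of 12843 genes (1.17%), among them Fkbp5 (log2 difference -0.69, adjusted p = 5.63e-07), Dusp1 (-1.17, adjusted p = 3.41e-06), Klf9 (-0.59, adjusted p = 0.000416), Orm3 (-2.99, adjusted p = 3.29e-12) and Sgk1 (0.43, adjusted p = 0.000775).

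A second set of responsive genes was taken from libraries outside the vehicle comparison: 25 genes that Cort raised on top of TCA in both lines. With vehicle, 24 of them were tested, of which 6 were higher and 13 lower in tetra. Their median was -0.21, and 0.17 in the Cort pair. The set is not separate from the list above. Shared among those tested are Orm3, Tsku, Ampd3, Sgk1, Klf9, Angptl4 and Cebpb (lower), Per1 and Sik1 (higher), and Tsc22d3 and Ccn2 (not called). Those higher in tetra included Per1, Sik1, Rhob, Jade2 and Vdr, the vitamin D receptor gene, named because they are few. Cort on top of TCA was called for 217 of 12833 (1.69%) of genes in tetra and 52 of 12778 (0.407%) in wt.

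The largest higher level in tetra among the named genes was that of Cdsn. Cdsn (chromosome 17, 35552128 to 35557180), which encodes corneodesmosin, an adhesion protein of cornified skin cells, had 2082, 2138 and 2285 in tetra, against 462, 439 and 358 in wt. It was 5.16-fold higher in tetra (log2 difference 2.37 ± 0.07 SE, adjusted p = 1.54e-20). Krt13, a keratin of stratified epithelium, had 409, 401 and 367 in tetra, against 108, 137 and 162 in wt (log2 difference 1.54 ± 0.12 SE, adjusted p = 1.27e-11). Sbsn, which encodes suprabasin, had 97.6 ± 10.03 in tetra and 35.3 ± 9.19 in wt (log2 difference 1.47 ± 0.20 SE, adjusted p = 6.37e-07).  All tetra libraries were above all wt libraries for each. Krt13 and Sbsn were also called higher in tetra in the other 3 pairs, whereas Cdsn differed by 2.30 with Cort, -0.01 with TCA and -0.37 with TCA plus Cort.

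Scara5, a ferritin receptor gene, had 605, 512 and 607 in tetra, against 158, 117 and 138 in wt (log2 difference 2.06 ± 0.11 SE, adjusted p = 2.09e-15). Snai2, a repressor of epithelial genes, had 533, 593 and 589 in tetra, against 241, 204 and 159 in wt (log2 difference 1.52 ± 0.11 SE, adjusted p = 2.17e-12). Neither showed overlap between the lines. The mitochondrial kinase gene Pdk1, which holds pyruvate out of the citric acid cycle, was 2.73-fold higher (log2 difference 1.43 ± 0.12 SE, adjusted p = 1.24e-10). Pfkfb3, which speeds glycolysis, was 2.51-fold higher (log2 difference 1.33 ± 0.14 SE, adjusted p = 6.45e-09). Fyb2, an adaptor gene, was 4.49-fold higher, the presynaptic gene Prrt2 3.35-fold and the arrestin-domain gene Arrdc3 3.16-fold. The teneurin gene Tenm4 was 2.96-fold higher, the calcium pump gene Atp2a3 2.86-fold, the orphan receptor gene Gpr19 2.56-fold and the chromatin remodeller gene Chd5 2.36-fold. Each of these was called with an adjusted p of at most 9.39e-05.

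Lower levels in tetra reached further than higher ones. Megf10 (chromosome 18, 57133090 to 57297467), an engulfment receptor gene, had 6.10, 14.5 and 10.7 in tetra, against 181, 181 and 211 in wt, a level 18.3-fold lower in tetra (log2 difference -4.14 ± 0.24 SE, adjusted p = 3.22e-14). Tpsab1 (chromosome 17, 25343245 to 25345562), a tryptase gene best known from mast cells, had 4044, 4463 and 3549 in tetra, against 36259, 34664 and 39346 in wt (log2 difference -3.20 ± 0.06 SE, adjusted p = 1.17e-25), 9.15-fold lower in tetra. The defining mast cell markers Kit, Fcer1a and Ms4a2 were at 0 in both lines. The MAP kinase phosphatase gene Dusp4 had 648, 654 and 628 in tetra, against 3959, 3902 and 4104 in wt (log2 difference -2.63 ± 0.05 SE, adjusted p = 1.17e-25). None of these showed overlap between the lines.

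Gpnmb, a glycoprotein of lysosomes and melanosomes, had 1399, 1366 and 1344 in tetra, against 9462, 9221 and 9671 in wt (log2 difference -2.79 ± 0.04 SE, adjusted p = 1.93e-27). Cxcl12, a chemokine gene, had 115, 81.6 and 70.7 in tetra, against 538, 494 and 523 in wt (log2 difference -2.56 ± 0.13 SE, adjusted p = 1.41e-15). Neither overlapped between the lines, and both were called lower in tetra in all 4 pairs. Further genes of the 15 with the largest lower levels were Lims2, an adaptor of focal adhesions (5.56-fold lower), the protease inhibitor gene Serpinb9b (5.28-fold), the immune receptor gene Cd300lb (5.28-fold), the steroid dehydrogenase gene Hsd17b14 (4.79-fold) and AU021092 (4.32-fold).

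**Figure D2:**
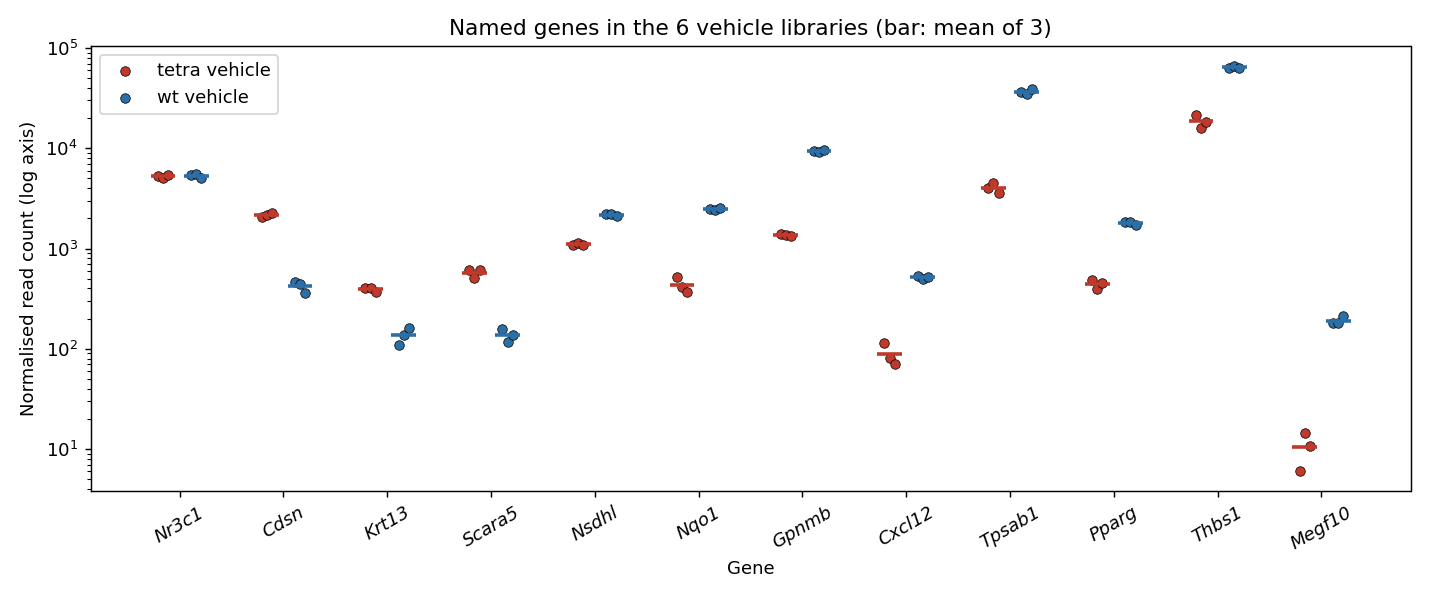
Normalised read counts on a log axis of 12 named genes in the 3 tetra vehicle libraries (red) and the 3 wt vehicle libraries (blue), with a bar at each mean. Nr3c1 overlaps between the lines, and the other 11 genes do not; Megf10 averages 10.4 in tetra and 191 in wt.

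Cholesterol synthesis was lower in tetra as a whole pathway. All 24 listed genes were tested and all 24 were called lower in tetra with vehicle, with a median log2 difference of -0.62, where 22.8% of all genes tested were called lower. Nsdhl (chromosome X, 72918521 to 72958528), which removes methyl groups from the sterol ring, had 1095, 1139.9 and 1092 in tetra, against 2231, 2228 and 2092 in wt (log2 difference -0.98 ± 0.05 SE, adjusted p = 1.67e-15). Hmgcs1, an early enzyme of the pathway, had 5064, 4778 and 5272 in tetra, against 9889.6, 9829 and 8925 in wt (log2 difference -0.92 ± 0.05 SE, adjusted p = 1.41e-15). For both the lowest wt library was above the highest tetra library.

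Insig1, a sensor that holds the sterol regulator SREBP in the endoplasmic reticulum and is itself one of its targets, had 5505, 5214 and 5441 in tetra, against 10684, 11183 and 10734 in wt (log2 difference -1.01 ± 0.04 SE, adjusted p = 1.48e-17). Along the pathway, and named for their place in it, Idi1 was at 436 ± 43.8 in tetra and 916 ± 25.99 in wt (log2 difference -1.07 ± 0.07 SE, adjusted p = 7.42e-13). The squalene synthase Fdft1 was at 1054 ± 3.91 in tetra and 1973 ± 42.2 in wt (log2 difference -0.90 ± 0.05 SE, adjusted p = 7.13e-15) and Sqle at 2967 ± 47.5 in tetra and 4443 ± 112 in wt (log2 difference -0.58 ± 0.04 SE, adjusted p = 3.35e-12). The regulator Srebf2 itself, at 8465 ± 263 in tetra and 10601 ± 360.2 in wt (log2 difference -0.32 ± 0.04 SE, adjusted p = 3.38e-07), had one of the smallest differences and was still called (SD, n = 3 each). The median of the list was -0.64 with Cort, -0.74 with TCA and -0.89 with TCA plus Cort, and 22 of 24 genes were called lower in all 4 pairs, where 3.04% of genes tested in all 4 were called the same way in each. Of the pathway's neighbour, fatty acid synthesis, 9 of 16 tested genes were lower and 1 higher (median -0.27), with Acss2, which makes acetyl-CoA, at 936 ± 65.6 in tetra and 1695 ± 98.2 in wt (log2 difference -0.86 ± 0.06 SE, adjusted p = 9.77e-13) and Fasn, the fatty acid synthase, at 22001 ± 526 in tetra and 28228 ± 855 in wt (log2 difference -0.36 ± 0.05 SE, adjusted p = 1.92e-07). That list's median was -0.18 with Cort, -0.19 with TCA and -0.31 with TCA plus Cort.

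RefSeq promoter windows of GRCm38.p6, from 250 bases before to 50 after the start, were matched by symbol for 16 of the 24 cholesterol genes. The CCAAT box (CCAAT on either strand), the site of NF-Y, a partner of SREBP at sterol genes, was found in 16 of 16 against 43.6% of all tested genes with a window. It was also in 22 of 28 genes of the stress response list described below (78.6%), which went the other way, and in 57.9% of the NRF2 list. A sterol regulatory element of the form TCACNCCAC, on either strand, was found in Hmgcs1 alone, 1 of 16 against 1.35%. A match is a description of these letters and no evidence of binding. Since the list is of sterol genes, these shares do not bear on the line difference. CCAAT was in 45.5% of all genes called higher and 42.1% of those called lower. A pair of windows is shown because Idi1 and Hmgcs1 had large differences within the list, with CCAAT boxes in capitals (here read as ATTGG, from the other strand) and, in Hmgcs1, also the sterol element.
Hmgcs1 (chr13:119690101-119690400, + strand): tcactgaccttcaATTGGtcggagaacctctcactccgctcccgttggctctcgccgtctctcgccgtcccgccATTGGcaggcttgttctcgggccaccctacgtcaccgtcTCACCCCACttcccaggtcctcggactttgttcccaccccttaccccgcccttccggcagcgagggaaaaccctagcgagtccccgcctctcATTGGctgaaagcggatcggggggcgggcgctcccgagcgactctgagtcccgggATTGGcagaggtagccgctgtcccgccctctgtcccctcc
Idi1 (chr13:8885356-8885655, + strand): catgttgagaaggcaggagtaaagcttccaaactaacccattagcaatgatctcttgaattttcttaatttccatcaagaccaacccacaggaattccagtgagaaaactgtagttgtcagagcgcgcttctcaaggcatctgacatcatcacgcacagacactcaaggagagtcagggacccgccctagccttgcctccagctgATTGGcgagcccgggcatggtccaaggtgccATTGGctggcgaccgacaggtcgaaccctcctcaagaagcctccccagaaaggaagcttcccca

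**Figure D3:**
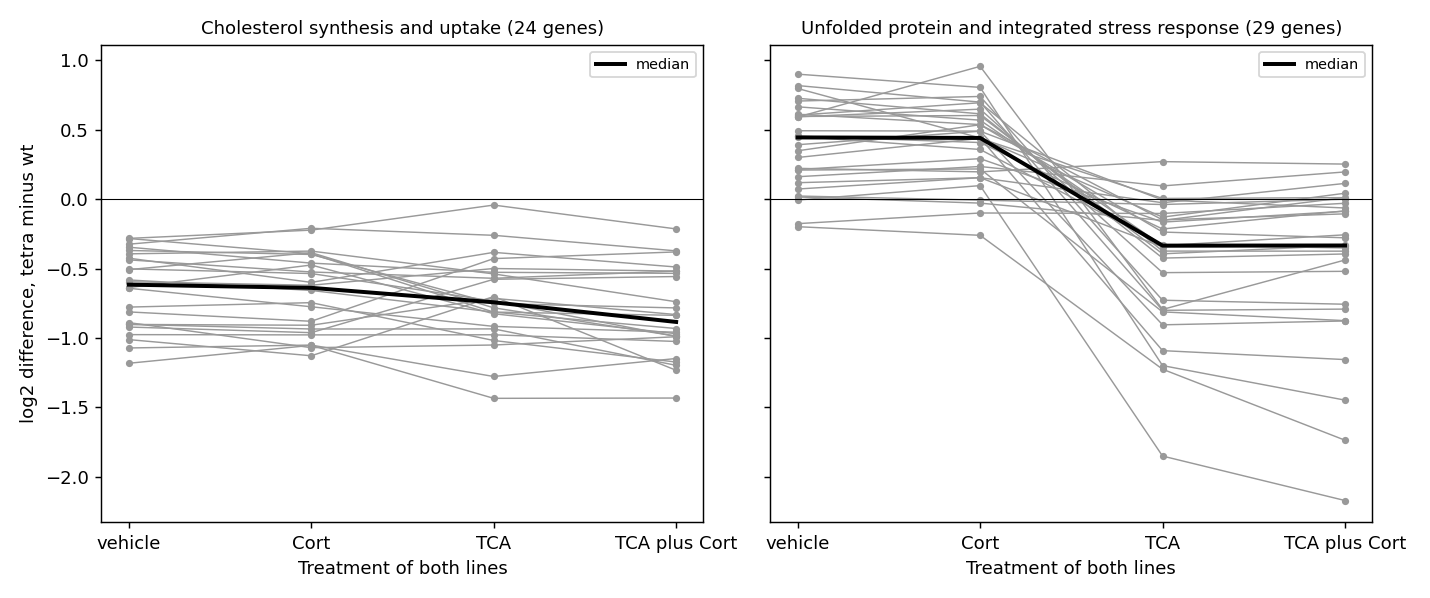
Each grey line is 1 gene and the black line the median of its list, as log2 difference tetra minus wt with vehicle, Cort, TCA and TCA plus Cort. The cholesterol list (left) has medians of -0.62, -0.64, -0.74 and -0.89, and the stress response list (right) 0.45, 0.44, -0.33 and -0.33.

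Genes listed as targets of NRF2, which drives the antioxidant response, were mostly lower in tetra. Of 25 tested, 21 were called lower and 1 higher (median -0.56), where 22.8% of all genes tested were lower and 21.4% higher. Nqo1 (chromosome 8, 107388225 to 107403205), a quinone reductase, had 524, 413 and 366 in tetra, against 2494, 2441 and 2562 in wt (log2 difference -2.54 ± 0.08 SE, adjusted p = 3.05e-20). Aldh3a1, an aldehyde dehydrogenase, had 219, 151 and 164 in tetra, against 1340.0, 1267 and 1475 in wt (log2 difference -2.94 ± 0.10 SE, adjusted p = 1.04e-19). Both were far below wt in every tetra library. Aldh3a1 is also in the aryl hydrocarbon receptor list, as its lowest difference, so these lists are not separate. Hmox1, which degrades haem, had 784 ± 60.3 in tetra and 2109 ± 54.8 in wt (log2 difference -1.43 ± 0.06 SE, adjusted p = 7.07e-18). Pgd, of the pentose phosphate pathway, had 6795 ± 162 in tetra and 12307 ± 165 in wt (log2 difference -0.86 ± 0.04 SE, adjusted p = 3.38e-16). The single member called higher was Slc7a11, the cystine transporter, at 969 ± 22.3 in tetra and 838 ± 44.8 in wt (log2 difference 0.21 ± 0.06 SE, adjusted p = 0.00452). Slc7a11 is also counted in the stress response list below. The median of the list was -0.62 with Cort, -0.24 with TCA and -0.09 with TCA plus Cort, and 10 of the 25 were called lower in all 4 pairs. For Nqo1 the vehicle difference was larger than the TCA difference (difference of log2 differences -2.24, adjusted p = 4.22e-09), as for Aldh3a1 (-2.73, adjusted p = 3.3e-08).

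The antioxidant response element, searched as TGACNNNGC on either strand, was in the promoter windows of 9 of 19 genes of this list that had a window, against 16.6% of all tested genes. A list of NRF2 targets can hold this element often whatever the lines do, so that share does not bear on the line difference. The element was in 17.6% of all genes called higher and 18.5% of those called lower. The window of Txnrd1, which encodes thioredoxin reductase and was lower in tetra at 6038 ± 264 in tetra and 9431 ± 151 in wt (log2 difference -0.64 ± 0.04 SE, adjusted p = 4.58e-13), is shown as an example chosen for its role, with the match in capitals.
Txnrd1 (chr10:82858956-82859255, + strand): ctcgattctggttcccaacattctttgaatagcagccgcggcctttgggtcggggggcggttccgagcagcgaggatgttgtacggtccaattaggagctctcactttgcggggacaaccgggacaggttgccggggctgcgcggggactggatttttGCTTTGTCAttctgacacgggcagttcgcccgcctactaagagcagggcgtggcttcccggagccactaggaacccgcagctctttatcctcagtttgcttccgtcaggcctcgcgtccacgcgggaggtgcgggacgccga

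The unfolded protein and integrated stress responses went the other way. Of 29 tested genes, 23 were higher and 2 lower in tetra (median 0.45), where 21.4% of all genes tested were higher and 22.8% lower. Trib3, a pseudokinase gene raised by stress, had 3202, 3761 and 3494 in tetra, against 1693, 1983 and 1921 in wt (log2 difference 0.90 ± 0.06 SE, adjusted p = 1.97e-13). Chac1, which degrades glutathione, had 2079, 2183 and 1924 in tetra, against 1168, 1174 and 1210.2 in wt (log2 difference 0.80 ± 0.05 SE, adjusted p = 4.14e-13). Each tetra library was above each wt library for both. Phgdh, the first enzyme of serine synthesis, had 5991 ± 432 in tetra and 3665 ± 193 in wt (log2 difference 0.71 ± 0.05 SE, adjusted p = 1.78e-12). The amino acid transporter gene Slc3a2 had 5049.9 ± 167 in tetra and 3051 ± 135 in wt (log2 difference 0.73 ± 0.04 SE, adjusted p = 9.95e-14). The chaperone gene Hspa5 (BiP), named for its role, had 13790.0 ± 787 in tetra and 9059.8 ± 500.4 in wt (log2 difference 0.61 ± 0.05 SE, adjusted p = 2.02e-11). The regulator Atf4 was at 13767 ± 645 in tetra and 10056 ± 288 in wt (log2 difference 0.45 ± 0.04 SE, adjusted p = 1.4e-09). The members called lower were Ddit3 (log2 difference -0.20 ± 0.06 SE, adjusted p = 0.00889), which encodes CHOP, and Sel1l (log2 difference -0.18 ± 0.04 SE, adjusted p = 0.00122), a part of the degradation machinery of the endoplasmic reticulum.

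The direction of the stress genes turned in the pairs with TCA: the median was 0.44 with Cort, -0.33 with TCA and -0.33 with TCA plus Cort. Called higher with vehicle and Cort and lower with TCA and with TCA plus Cort were 14 of the 29, where 873 of 12580 genes tested in all 4 pairs (6.94%) were called one way in the first pairs and the other way in the last. For Trib3 the vehicle and TCA differences differed by 2.10, adjusted p = 2.79e-11, and for Chac1 by 1.89, adjusted p = 4.28e-08. The CARE element of ATF4 and CHOP, searched as TGATGNAA on either strand, was in the windows of 5 of 28 genes, against 2.80% of all tested genes. Since the list is of stress response genes, that share does not bear on the line difference. CARE was in 2.97% of all genes called higher and 2.52% of those called lower. The windows of Trib3 and Chac1, which had the largest and the third largest difference of the list, are shown with the match in capitals.
Trib3 (chr2:152344011-152344310, - strand): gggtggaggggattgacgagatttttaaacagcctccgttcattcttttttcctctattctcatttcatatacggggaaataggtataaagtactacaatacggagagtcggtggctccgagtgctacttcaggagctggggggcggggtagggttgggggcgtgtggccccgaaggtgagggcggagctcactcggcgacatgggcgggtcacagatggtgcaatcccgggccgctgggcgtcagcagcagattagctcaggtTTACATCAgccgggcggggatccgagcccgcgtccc
Chac1 (chr2:119350992-119351291, + strand): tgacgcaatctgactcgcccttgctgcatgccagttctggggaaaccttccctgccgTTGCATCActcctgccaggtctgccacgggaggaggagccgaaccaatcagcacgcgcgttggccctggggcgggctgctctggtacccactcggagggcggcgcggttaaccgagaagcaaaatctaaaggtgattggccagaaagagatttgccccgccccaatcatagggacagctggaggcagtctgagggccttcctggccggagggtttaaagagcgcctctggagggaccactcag

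Among lipid storage genes, Pparg (chromosome 6, 115422066 to 115490401), the nuclear receptor that drives fat cell formation, had 485, 398 and 455 in tetra, against 1820.4, 1827 and 1735 in wt (log2 difference -2.01 ± 0.07 SE, adjusted p = 7.2e-20). Other members of the list went both ways. Plin4 had 12911, 11520.2 and 11845 in tetra, against 34132, 35023 and 34646 in wt (log2 difference -1.52 ± 0.05 SE, adjusted p = 2.15e-20), and Plin2, which coats droplets in most cells, had 5319.8 ± 121 in tetra and 12144 ± 341 in wt (log2 difference -1.19 ± 0.04 SE, adjusted p = 3.38e-19). Cidec, which enlarges droplets, had 29.5 ± 4.07 in tetra and 130.1 ± 25.7 in wt (log2 difference -2.09 ± 0.19 SE, adjusted p = 3.61e-10). Pnpla2, the first lipase of stored fat, had 970.1 ± 35.3 in tetra and 1653 ± 54.5 in wt (log2 difference -0.77 ± 0.05 SE, adjusted p = 1.16e-12). In all, of 18 tested genes 4 were called higher and 10 lower in tetra (median -0.22). Among all genes tested 21.4% were higher and 22.8% lower. The 4 higher ones were Adipor2, Fabp4, Fabp5 and G0s2, with log2 differences of 0.21, 0.71, 0.35 and 0.64. Pparg, Plin4, Plin2 and Cidec were higher in tetra in the TCA pair, by 1.59, 1.59, 0.53 and 1.75 on the log2 scale, and the tested difference between the vehicle and TCA pairs was -3.60, adjusted p = 1.15e-13 for Pparg.

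The proliferins are prolactin-family growth factors, and their near-identical copies share reads and are uncertain one by one. Prl2c2 had 185, 265 and 201 in tetra, against 799.9, 827 and 962 in wt (log2 difference -2.00 ± 0.10 SE, adjusted p = 1.35e-15), and Prl2c3, Prl2c4 and Prl2c5 had log2 differences of -1.76, -1.76 and -2.83. All 5 tested genes of the proliferin and mast cell protease list were lower in tetra with vehicle (median -2.00), and the median was -2.11 with Cort, 2.35 with TCA and 3.14 with TCA plus Cort.

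Extracellular matrix genes differed in both directions. Of 31 tested collagen and protease genes 12 were higher and 13 lower in tetra, with a median of -0.01 that turned sign under each other scaling run (0.09 without Rn45s). Among all genes tested 21.4% were higher and 22.8% lower. The type IV collagens of basement membranes were lower. Col4a1 had 16391, 17261 and 16848 in tetra, against 36215, 36923 and 37369.8 in wt (log2 difference -1.13 ± 0.04 SE, adjusted p = 7.93e-18), and Col4a2, Col4a5 and Col4a6 differed by -1.04, -0.92 and -0.99 on the log2 scale. The fibrillar collagens Col3a1, at 272 ± 10.7 in tetra and 116 ± 18.8 in wt (log2 difference 1.23 ± 0.12 SE, adjusted p = 1.81e-09), and Col1a1, at 213 ± 19.8 in tetra and 99.2 ± 25.98 in wt (log2 difference 1.12 ± 0.15 SE, adjusted p = 4.31e-07), were higher, both named after their values were seen. Col3a1 was called higher in tetra in all 4 pairs, with 1.60, 1.74 and 1.78 in the others, whereas Col4a1 was at 0.49 in the TCA pair. The list's median was 0.05 with Cort, 0.39 with TCA and 0.35 with TCA plus Cort.

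Adhesion and contact genes were mixed. Of 14 integrin subunits 2 were higher and 5 lower (median -0.07, of the other sign when scaled to exon reads with or without Rn45s), with Itgb5, a vitronectin receptor subunit, at 4901 ± 167 in tetra and 8581 ± 57.1 in wt (log2 difference -0.81 ± 0.04 SE, adjusted p = 1.76e-15). Of 17 YAP and TEAD targets 3 were higher and 11 lower (median -0.15), led by Thbs1, a matrix glycoprotein that activates TGF-beta, with 21639, 16113 and 18133 in tetra, against 62559.9, 65903 and 63782 in wt (log2 difference -1.79 ± 0.07 SE, adjusted p = 2.09e-18). Ccn1 was at 3532 ± 225 in tetra and 5358 ± 173 in wt (log2 difference -0.60 ± 0.05 SE, adjusted p = 1.25e-11). The medians were 0.01 with Cort, 0.17 with TCA and 0.10 with TCA plus Cort for integrins, and -0.06 with Cort, 0.05 with TCA and 0.08 with TCA plus Cort for YAP and TEAD targets. In the TCA pair Thbs1 and Ccn1 differed by 1.09 and 1.13. For TGF-beta and BMP genes, of 24 tested genes 5 were called higher and 11 lower in tetra (median -0.10), a median of the other sign when scaled without Rn45s. The BMP targets Id1, Id2, Id3 and Smad6 were all lower, with Id3, an inhibitor of helix-loop-helix factors, at 2984, 2977 and 2772 in tetra, against 6069.9, 5729 and 6189 in wt (log2 difference -1.04 ± 0.04 SE, adjusted p = 3.58e-17), Id1 at 1079 ± 44.6 in tetra and 2275 ± 186 in wt and Id2 at 908 ± 48.3 in tetra and 1749 ± 188 in wt. The list's median was -0.05 with Cort, -0.03 with TCA and 0.14 with TCA plus Cort.

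For epithelial genes, of 13 tested genes 2 were called higher and 7 lower in tetra (median -0.42). Among all genes tested 21.4% were higher and 22.8% lower. Jup, which encodes the junction protein plakoglobin, had 787, 737 and 724 in tetra, against 2203, 2179 and 2408 in wt (log2 difference -1.59 ± 0.05 SE, adjusted p = 2.76e-19). Krt14, a basal keratin, had 551 ± 65.6 in tetra and 1083 ± 75.9 in wt (log2 difference -0.98 ± 0.07 SE, adjusted p = 6.77e-12). The summed count of the epithelial list was 10651 to 10800.2 in tetra and 13550.2 to 14009.6 in wt. Of mesenchymal genes, 5 were higher and 6 lower among 20 tested (median -0.04, of the other sign under the total-read scalings), with Pdgfrb at 4275 ± 136 in tetra and 7429 ± 86.6 in wt (log2 difference -0.80 ± 0.04 SE, adjusted p = 2.43e-15), Twist2 at 879 ± 59.1 in tetra and 1742 ± 68.02 in wt (log2 difference -0.99 ± 0.06 SE, adjusted p = 2.29e-14) and Snai2 higher as given above. Their summed count was 198495 to 200153 in tetra and 235386 to 239398 in wt. Vim alone, with the counts given above, holds a large part of these sums, so they do not describe the list as a whole. Of the mesenchymal genes tested 55.0% were called, against 44.2% of all genes. The median was -0.31 with Cort, 0.19 with TCA and 0.17 with TCA plus Cort for epithelial genes, and 0.01 with Cort, 0.35 with TCA and 0.32 with TCA plus Cort for mesenchymal genes. The part of these levels in the other differences was not tested.

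For interferon-stimulated and class I genes, of 19 tested genes 0 were called higher and 11 lower in tetra (median -0.28). Among all genes tested 21.4% were higher and 22.8% lower. Tapbp, which loads peptides onto class I molecules, had 1966, 1693 and 1735 in tetra, against 3789, 3636 and 3948 in wt (log2 difference -1.08 ± 0.05 SE, adjusted p = 4.35e-16). B2m, the light chain of class I molecules, had 2994 ± 116 in tetra and 4471 ± 54.3 in wt (log2 difference -0.58 ± 0.04 SE, adjusted p = 5.96e-12). H2-D1, a heavy chain, had 4969.8 ± 16.3 in tetra and 6584 ± 522 in wt (log2 difference -0.40 ± 0.05 SE, adjusted p = 4.56e-08). Not called were the class I heavy chain genes H2-K1 (log2 difference -0.05, adjusted p = 0.448) and H2-Q4 (-0.14, adjusted p = 0.396) and the peptide transporter gene Tap1 (0.13, adjusted p = 0.127). The RNA sensor gene Ddx58 had 567 ± 25.3 in tetra and 788 ± 75.3 in wt (log2 difference -0.47 ± 0.07 SE, adjusted p = 3.57e-06). The median of the list was -0.27 with Cort, 0.09 with TCA and -0.06 with TCA plus Cort. For EGF receptor genes, of 20 tested genes 6 were called higher and 2 lower in tetra (median 0.14), or 40.000% called against 44.2% of all genes. The list had medians of 0.08 with Cort, -0.02 with TCA and -0.14 with TCA plus Cort. The ligand genes Areg, at 133 ± 9.78 in tetra and 81.1 ± 14.2 in wt (log2 difference 0.71 ± 0.15 SE, adjusted p = 0.000293), and Ereg, at 346 ± 29.96 in tetra and 228 ± 16.3 in wt (log2 difference 0.60 ± 0.10 SE, adjusted p = 8.57e-06), and the feedback gene Spry1, at 471 ± 31.96 in tetra and 315 ± 15.3 in wt (log2 difference 0.58 ± 0.08 SE, adjusted p = 1.36e-06), were higher, while Dusp4 was lower.

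Of mitosis, replication and ribosomal protein genes, more were called higher than lower in tetra with vehicle. Among all genes tested 21.4% were higher and 22.8% lower. Of 25 mitosis genes 18 were higher and none lower (median 0.17), with Cdk1, the kinase that starts mitosis, at 1623, 1818 and 1703 in tetra, against 1335, 1409 and 1344 in wt (log2 difference 0.33 ± 0.05 SE, adjusted p = 6.75e-06), and Ube2c at 2757 ± 240.2 in tetra and 2153 ± 73.6 in wt (log2 difference 0.35 ± 0.05 SE, adjusted p = 2.79e-06). Of 30 S-phase genes 15 were higher and 3 lower (median 0.15), with Cdc6 at 943 ± 34.2 in tetra and 759 ± 24.7 in wt (log2 difference 0.31 ± 0.06 SE, adjusted p = 8.05e-05), while Rrm2, a subunit of ribonucleotide reductase, was lower at 7958 ± 1016 in tetra and 11689 ± 392.3 in wt (log2 difference -0.56 ± 0.06 SE, adjusted p = 4.22e-09). Of 79 ribosomal protein genes 66 were higher and none lower (median 0.23), with Rpl7 at 13613, 14090.2 and 13947 in tetra, against 9818, 10679.7 and 10185 in wt (log2 difference 0.44 ± 0.04 SE, adjusted p = 1.42e-09). Under the scaling without Rn45s, where the median of all genes was 0.11, these medians were 0.27, 0.25 and 0.33. With TCA the direction turned for mitosis genes, of which 1 was higher and 13 were lower, and for S-phase genes, of which 0 were higher and 13 were lower. The medians were 0.18 with Cort, -0.22 with TCA and -0.08 with TCA plus Cort for mitosis genes, 0.18 with Cort, -0.18 with TCA and -0.18 with TCA plus Cort for S-phase genes and 0.25 with Cort, 0.10 with TCA and 0.12 with TCA plus Cort for ribosomal protein genes.

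Replication histone genes, whose copies are nearly identical so that single counts are uncertain, were higher for 54 of 63 and lower for 1 (median 0.26). Hist1h1a, a linker histone gene, had 3249.6, 4057 and 3455 in tetra, against 2309, 2300.3 and 2314 in wt (log2 difference 0.63 ± 0.06 SE, adjusted p = 2.56e-10). The histone median was 0.48 with Cort, -0.41 with TCA and -0.37 with TCA plus Cort. Called one way with vehicle and Cort and the other way in both pairs with TCA were 43 of the 63, against 6.94% of all genes tested in all 4 pairs. The near-identical copies are not separate measurements. Among small nuclear, nucleolar and RNase P RNAs none was higher and 11 of 24 were lower (median -0.64). The share called, 45.8%, lay near the 44.2% of all genes tested, of which 21.4% were higher and 22.8% lower. Rmrp, the RNA of RNase MRP, had 64426, 59661 and 49544 in tetra, against 159733, 113023 and 149715 in wt (log2 difference -1.28 ± 0.09 SE, adjusted p = 4.43e-12). Rpph1, the RNA of RNase P, had 111666 ± 8696 in tetra and 193474 ± 16966 in wt (log2 difference -0.79 ± 0.08 SE, adjusted p = 1.72e-09), and Snora74a had 134 ± 1.90 in tetra and 644 ± 159.5 in wt (log2 difference -2.23 ± 0.12 SE, adjusted p = 2.65e-15). The median was -0.20 with Cort, -0.12 with TCA and -0.07 with TCA plus Cort. The vehicle difference was called larger than the Cort difference for Rmrp (by -1.01, adjusted p = 0.00272), Rpph1 (-0.97, adjusted p = 0.00101) and Snora74a (-1.20, adjusted p = 0.00632).

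**Figure D4:**
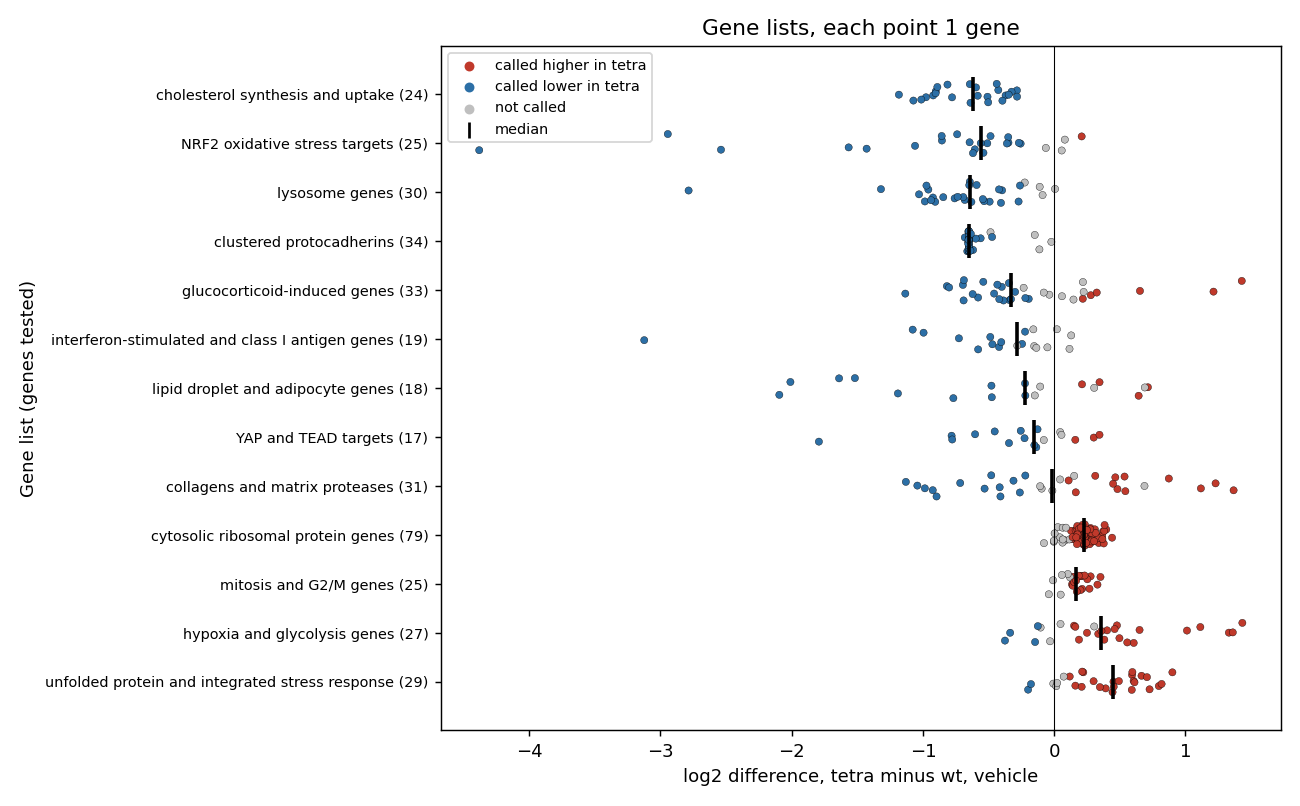
Each point is 1 tested gene of a list, placed by its log2 difference tetra minus wt with vehicle, in red if called higher in tetra, blue if called lower and grey if not called; black bars are list medians and numbers in brackets are genes tested. The cholesterol list lies wholly below 0, with a median of -0.62, and the stress response list mostly above it, with a median of 0.45; the lysosome and hypoxia lists were chosen after their values were seen.

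Counts of the remaining lists follow, where 21.4% of all genes tested were called higher and 22.8% lower. The HOX list (43.5% called) and the mammary list (45.5%) lay near the 44.2% of all genes. Inflammatory genes had 3 higher and 4 lower of 12, p53 targets 5 and 5 of 19, clock genes 7 and 6 of 16, imprinted genes 0 and 5 of 14, HOX genes 5 and 5 of 23, bile acid receptors and transporters 1 and 4 of 9, the aryl hydrocarbon receptor battery 0 and 5 of 7, mammary genes 2 and 3 of 11, immune markers 0 and 2 of 4, and endothelial markers 1 and 1 of 3. Germline genes had 1 higher of 2 tested, and the 2 tested genes of the Y chromosome and X inactivation list were not called.

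Whether the line differences recur was asked in the pairs that share no library with the vehicle pair. In the Cort pair, 5084 of 12866 genes (39.5%) were called, 3.12% at least 2-fold. Of the genes called with vehicle 5659 were tested there, and 4059 (71.7%) were called in the same direction, 16 in the opposite one. In the TCA pair 3162 of 12754 (24.8%) were called, 2.05% at least 2-fold. Of 5621 vehicle calls tested 553 (9.84%) were called the same way and 1304 (23.2%) the opposite way. In the TCA plus Cort pair 4966 of 12886 (38.5%) were called, 2.72% at least 2-fold. Of 5628 vehicle calls 922 (16.4%) were called the same way and 1728 (30.7%) the opposite way. The difference between the vehicle and TCA pairs was itself called for 5302 of 12786 genes (41.5%), against 150 of 12843 (1.17%) for vehicle and Cort. Among the 366 genes at least 2-fold apart with vehicle, 308 of 362 tested were called the same way with Cort, and 81 of 326 with TCA.

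**Figure D5:**
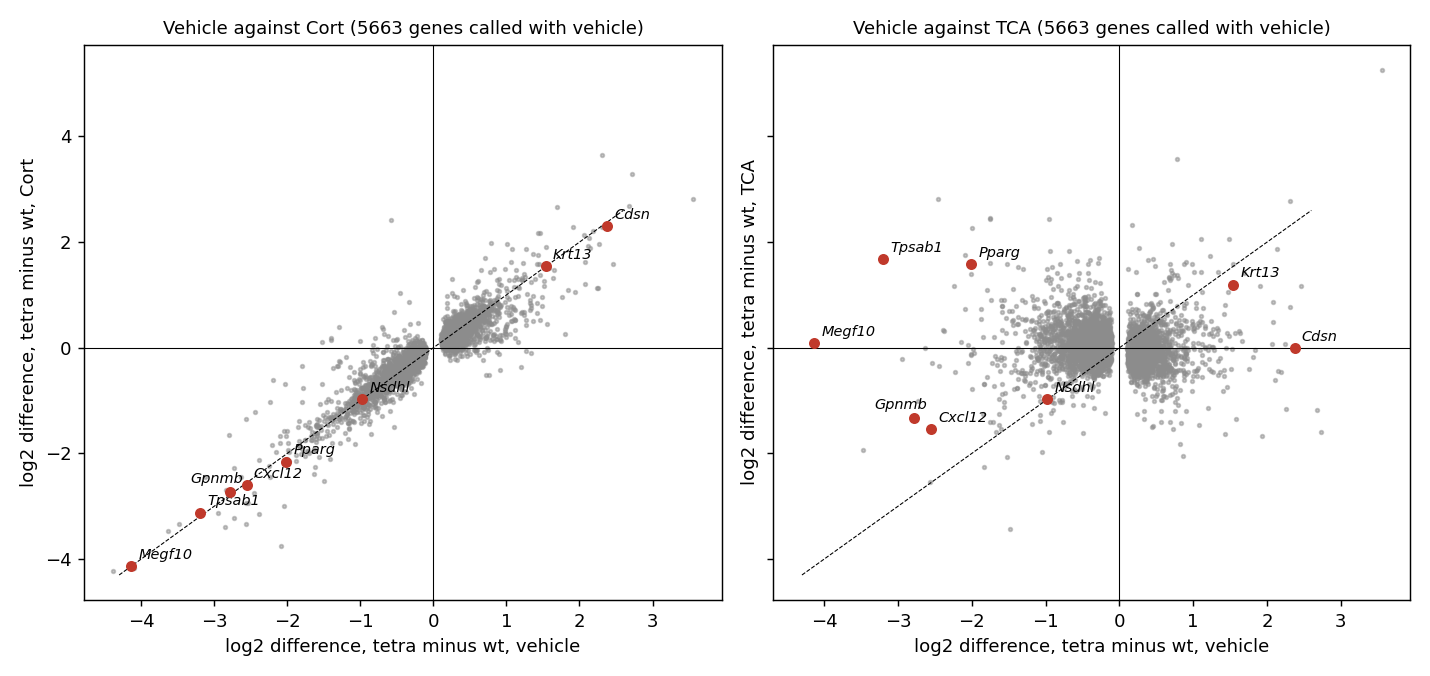
Each grey point is 1 of the genes called with vehicle, with the vehicle log2 difference (tetra minus wt) on the horizontal axis and that of the Cort pair (left) or the TCA pair (right) on the vertical axis; the dashed line marks equal values and 8 named genes are in red. Tpsab1 sits at -3.20 with vehicle, -3.12 with Cort and 1.68 with TCA.

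A smaller set kept its direction in every pair: 383 of 12580 genes tested in all 4 (3.04%) were called the same way in each, 173 higher and 210 lower in tetra. By the smallest of the 4 differences, the genes with the largest higher levels were Col3a1, Sbsn, Afap1l2, Krt13 and Inhbb, a subunit of activin B, and those with the largest lower levels included Nlrp4f, Eps8, Slc2a6 and Hspa12a, all named by that order after the values were seen. Eps8, a signalling adaptor of actin, had 490.1, 564 and 598 in tetra, against 1585, 1681 and 1762 in wt and differed by -1.61, -1.79, -1.55 and -1.60 in the vehicle, Cort, TCA and TCA plus Cort pairs. Hspa12a had 185, 166 and 175 in tetra, against 605, 666 and 615 in wt and differed by -1.84, -1.39, -2.26 and -2.79. Vdr, the vitamin D receptor, had 2489, 2473 and 2485 in tetra, against 1572, 1418 and 1350.1 in wt and differed by 0.78, 0.87, 1.37 and 1.55. Neither line's libraries overlapped with vehicle in these genes.

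Along the genome the differences were spread over all chromosomes. Chromosome medians lay between -0.04 (chromosome 1) and 0.08 (chromosome 12) with vehicle, against -0.02 to 0.02 for Cort against vehicle within tetra. Chromosome 1 was at -0.04 with Cort, 0.11 with TCA and 0.11 with TCA plus Cort, and chromosome 12 at 0.07, 0.04 and 0.06. Of 137 windows of 20 Mb with at least 20 tested genes, the lowest median was -0.17, at 20 to 40 Mb of chromosome 18 over 138 genes, of which 34 are clustered protocadherins, and it was -0.01 without them. The protocadherins, neuronal adhesion genes, were lower for 29 of 34 tested and higher for none (median -0.65; -0.60 with Cort, -0.16 with TCA and -0.11 with TCA plus Cort), but the gamma genes share their 3' exons and were counted with nearly the same reads, so Pcdhgc3, Pcdhgc5 and their neighbours are not separate measurements. Lims2 lies in the same window. The highest window median, 0.17, was at 20 to 40 Mb of chromosome 13 over 120 genes, 52 of them histone genes, and it was -0.01 without these. Serpinb9b and Serpinb1a, protease inhibitor genes with log2 differences of -2.39 and -2.02, lie there too. Among windows with no member of either family, medians reached 0.16 at 60 to 80 Mb of chromosome 3 (38 genes). They fell to -0.13 at 80 to 100 Mb of chromosome 1 (100 genes). Neither value held in the pairs with TCA. The chromosome 3 window was at 0.16 with Cort, -0.02 with TCA and 0.08 with TCA plus Cort. The chromosome 1 window was at -0.13 with Cort, 0.19 with TCA and 0.16 with TCA plus Cort.

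Promoter windows were found for 9938 of the 12803 tested genes. The receptor's hexamer AGAACA, on either strand, was in 13.7% of genes called higher, 12.98% of those called lower and 14.6% of all. It was in 18 of 74 genes at least 2-fold higher (24.3%) and 31 of 188 at least 2-fold lower (16.5%), and in 2 of 26 of the glucocorticoid-induced genes, Sgk1 and Tsc22d3. An inverted pair of it 3 bases apart, the classic full element, was in 1 of 9938 genes with a window, Sgk1. Genes with large differences had fewer CpG sites: the mean number per 300 bases was 14.2 for genes at least 2-fold higher in tetra, 13.2 for genes at least 2-fold lower and 20.5 for all tested genes. GC content was 57.4, 57.6 and 60.5% in the same sets.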

How the data were processed

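Total RNA of the C127 lines was sequenced from stranded, ribosomal RNA-depleted libraries, per the labels' protocols. Per the submitters' processing notes, cutadapt, STAR 2.7.0f, HOMER 4.10.4 and the build mm10 were used. Per the file headers, the authors deposited 6 tables of exon reads per gene, 1 listed transcript per gene, as variance-stabilised log2 values scaled separately per table; no strand setting is given there, so a gene and its antisense partner may share reads. The headers of 5 tables name Halo directories where the columns and labels say GFP. The authors' fold and p-value columns were not used. Every library column was matched to a sample.

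The deposited log2 scale was inverted per table, which gave whole reads (within 0.01) for all values below 1000. Tetra vehicle came from the tetra and wt vehicle from the wt table of Cort and vehicle, over the 25124 shared symbols. For 151 called genes the tables list different transcripts. Size factors were median ratios over the libraries of a comparison, and limma 3.58.1 (R 4.3.3) with trend was fitted to log2(count + 1) for genes with a mean of at least 10, adjusted by Benjamini-Hochberg over all tested. Counts were also simulated with 200 changed genes and a dispersion set at 0.02, which was not estimated from these libraries. In them, 2-fold changes were called for 91.0% and 1.5-fold changes for 38.8% of changed genes, with 8 false calls of 12764. These shares hold for that dispersion and are not the power of the real comparison. A floor of 3 counts covers counting error only, as do all statements on depth. Same-numbered replicates did not deviate together, so no block was used. Alternatives were scaling, pseudocount, filter, trend, voom, replicate block, all 12 vehicle and Cort libraries in 1 fit, the other deposited tables and leaving out each library. Figures used Python 3.11.15 and matplotlib 3.10.9.

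Gene lists and named genes were chosen with earlier results of these data known. Named are a panel of 12 genes, up to 15 genes each way with the largest called difference, a mean of at least 50 and no overlap, up to 4 members per list described by smallest adjusted p, and 2 per window; others are marked. Some genes that the rule names are not reported here. Gene calls in the pairs with TCA, their test against vehicle, 2 lists and the motif searches other than the receptor's were added after seeing the data.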

Additional observations from a re-analysis of the deposited data

Results flagged for a closer look

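Among the named genes, 20 showed a line difference (tetra minus wt) with vehicle that differed from the one with Cort by the interaction test (limma, Benjamini-Hochberg over 12843 genes). On the log2 scale, vehicle minus Cort, the lower ones were Bcl2l1 (-0.85), Dusp1 (-1.17), Fkbp5 (-0.69), Id1 (-0.43), Klf9 (-0.59), Lims2 (-1.23), Mknk2 (-1.05), Mt1 (-0.55), Orm3 (-2.99), Plin4 (-0.83), Rmrp (-1.01), Rpph1 (-0.97), Rprl3 (-0.80) and Snora74a (-1.20). The higher ones were Ankrd1 (0.50), Cd300lb (0.77), Chac1 (0.36), Ddit4 (0.53), Sgk1 (0.43) and Smad6 (0.52). For Orm3, the largest of these, tetra was lower with vehicle (-0.58) and higher with Cort (2.41).

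For 11 of the panel genes and the genes with the largest vehicle differences, the line difference was called in opposite directions with vehicle and with TCA and the difference itself was called (limma interaction term over 12 libraries, added after the values were seen). Vehicle minus TCA, the lower ones were Cidec (-3.85), Hsd17b14 (-3.42), Orm3 (-2.22), Pparg (-3.60), Sgk1 (-0.91), Tpsab1 (-4.87) and Vim (-0.77), and the higher ones Atp2a3 (1.92), Fyb2 (2.63), Pfkfb3 (1.84) and Tenm4 (2.93). In tetra the Tpsab1 count was 3597 ± 896 with TCA and 4175 ± 468 with vehicle, whereas in wt it was 1152 ± 452 with TCA and 38187 ± 2500.3 with vehicle (mean ± SD, n = 3 each, on the scale of all 24 libraries). For Pparg the counts were 497 ± 15.9 and 464 ± 47.01 in tetra, and 164 ± 13.3 and 1864 ± 52.8 in wt. The wt libraries with TCA stood apart from the wt vehicle libraries over all genes, and the part of this in the single differences was not tested.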

How the results depend on the processing

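The vehicle count of 5663 called genes ranged from 4540 without a trend to 6691 with scaling to exon reads without Rn45s, and from 4681 to 5358 when 1 library was left out. The split also moved: 4655 genes were called higher in tetra without Rn45s, against 2740. At least 2-fold differences numbered 201 with a minimum mean of 50 and 681 with no filter for vehicle, and 223 and 703 for Cort, since the filter sets how many low genes are tested. Leaving out 1 library gave 3899 to 5191 calls for Cort. With the replicate block the count was 5236 for vehicle and 5534 for Cort; the samples share only a number, with correlations of deviations of -0.10 to 0.02 between same-numbered libraries, and tetra library 1 correlated best with wt library 3. With the same listed transcript in both tables, chosen after seeing the data, vehicle gave 5514 calls. Of 128 named genes tested, 123 kept direction and call under every alternative. Sign changes occurred in uncalled genes: Nr3c1 (0.0804 scaled to exon reads without Rn45s, 0.0158 scaled to the upper quartile, 0.0621 scaled to total exon reads, 0.00213 without tetra replicate 2); Tsc22d3 (0.0634 scaled to exon reads without Rn45s, 0.0451 scaled to total exon reads, 0.0355 without tetra replicate 1, 0.00447 without wt replicate 2). Leaving out 1 library gave -0.055 to 0.0021 for Nr3c1 and -0.092 to 0.036 for Tsc22d3. Calls were lost for Itgav (adjusted p = 0.0547 scaled to exon reads without Rn45s); Per1 (adjusted p = 0.0509 no trend, adjusted p = 0.0917 without tetra replicate 2, adjusted p = 0.137 without wt replicate 1). Dusp1 was called with 12 libraries in 1 fit (adjusted p = 0.0404) and without wt replicate 2 (adjusted p = 0.0378). The cause of these changes was not tested. In simulated data with a dispersion set at 0.02, not estimated from these libraries, a 1.5-fold change was recovered for 38.8% of the changed genes. That share is not the power of the real comparison, in which called genes had a median difference of 1.24-fold. Uncalled genes are still not shown to be equal.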

Other observations

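A pair of further gene groups, assembled after the largest differences were seen and so given as a description only, also differed between the lines with vehicle. Of 30 tested lysosome genes 26 were lower in tetra and none higher (median -0.64), where 22.8% of all genes tested were lower. The protease genes Ctsd, at 6618 ± 158 in tetra and 13509 ± 159 in wt (log2 difference -1.03 ± 0.04 SE, adjusted p = 7.65e-18), and Ctsb, at 7339 ± 142 in tetra and 13921 ± 271 in wt (log2 difference -0.92 ± 0.04 SE, adjusted p = 7.36e-17), the sialidase gene Neu1, at 195 ± 8.79 in tetra and 489.9 ± 60.2 in wt (log2 difference -1.32 ± 0.09 SE, adjusted p = 2.95e-12), and the autophagy receptor gene Sqstm1, at 13923 ± 412 in tetra and 27327 ± 525 in wt (log2 difference -0.97 ± 0.04 SE, adjusted p = 1.04e-16), were among them (SD, n = 3 each). The median of the list was -0.57 with Cort, -0.03 with TCA and 0.03 with TCA plus Cort. The CLEAR element TCACGTGA, through which TFEB acts on lysosome genes, was in the promoter windows of 4 of 20 of these genes, against 2.2% of all tested genes. Since the list is of lysosome genes, that share does not bear on the line difference. CLEAR was in 1.37% of all genes called higher and 3.45% of those called lower. The window of Ctsa, which encodes cathepsin A and holds it at both places in capitals, is shown for that reason; Ctsa was lower in tetra at 515 ± 2.57 in tetra and 1003 ± 62.9 in wt (log2 difference -0.96 ± 0.06 SE, adjusted p = 6.22e-13).
Ctsa (chr2:164833523-164833822, + strand): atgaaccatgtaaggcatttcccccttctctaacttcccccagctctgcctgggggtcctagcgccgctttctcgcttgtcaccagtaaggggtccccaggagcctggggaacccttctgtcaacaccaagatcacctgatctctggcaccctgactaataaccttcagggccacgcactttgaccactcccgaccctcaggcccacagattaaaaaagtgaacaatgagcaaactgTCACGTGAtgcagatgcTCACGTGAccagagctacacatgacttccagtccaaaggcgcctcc

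Of 27 tested genes of hypoxia and glycolysis 19 were higher and 4 lower in tetra (median 0.36). Among all genes tested 21.4% were higher and 22.8% lower. Bnip3, a mitophagy receptor gene, had 1569.9, 1667 and 1638 in tetra, against 747, 891 and 783 in wt (log2 difference 1.01 ± 0.06 SE, adjusted p = 5.52e-14). Egln3, an oxygen-sensing hydroxylase gene, was at 269.9 ± 10.9 in tetra and 126 ± 26.5 in wt (log2 difference 1.11 ± 0.13 SE, adjusted p = 4.75e-08), Pgk1 at 17160.2 ± 684 in tetra and 10924 ± 235 in wt (log2 difference 0.65 ± 0.04 SE, adjusted p = 5.67e-13) and Ldha, which makes lactate, at 32861 ± 902 in tetra and 22339.7 ± 929.9 in wt (log2 difference 0.56 ± 0.05 SE, adjusted p = 8.88e-11). The members called lower were Hk2, Adm, Gpi1 and Aldoa. The median was 0.41 with Cort, -0.03 with TCA and -0.06 with TCA plus Cort, and 5 of the 27 were called the same way in all 4 pairs.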
